A study of Rattus norvegicus with 3 samples.

Results

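The genes described here encode the proteins of the cytosolic ribosome. They were chosen by name: every symbol that begins with Rpl or Rps followed by a digit, together with Rpsa, Rplp0, Rplp1 and Rplp2, and without the Rps6k kinases. The rule itself uses no measured value, although the group was proposed with earlier results of these data known. The rule gave 66 genes on 96 probes, of 8899 genes on 10768 probes that could be named on the array. Of the 66 genes, 27 encode proteins of the small subunit and 39 encode proteins of the large subunit. A single probe was present for 45 of them, and 21 had several, up to 5 for Rpl21. Each gene is given by its brightest probe, judged by the mean of the arrays.

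The small subunit of the ribosome holds and reads the messenger RNA, and the large subunit joins the amino acids and passes the growing chain out through a tunnel. The subunits are put together in the nucleolus from ribosomal RNA and proteins that are needed in balanced amounts. Many of the messengers for these proteins begin with a stretch of pyrimidines, the 5′ terminal oligopyrimidine (TOP) tract, through which the mTOR kinase controls their translation, so that the amount of messenger and the amount of protein made from it can differ. Because these messengers are abundant in neurons and glia alike, several of them are used as reference genes when other transcripts are quantified.

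The animals were male adult Sprague-Dawley rats that weighed 200 to 250 g, and the process under study was vestibular compensation, in which balance returns after the inner ear is destroyed on 1 side. RNA came from the vestibular nuclei, where the balance nerve ends in the brainstem, and was hybridised in 1 colour to 3 Agilent whole-genome arrays. The groups were a control labelled as sham-operated, and the nuclei on the operated side 1 day and 7 days after the left labyrinth was removed. In the protocol text the controls are instead described as normal rats, and which side was taken from them is not stated in the labels. Each group had 1 array with RNA that appears to be pooled, since nuclei of 3 rats were collected per group for want of RNA from single animals. No value below therefore has an error from animals, and no test of conditions was possible. Differences are given as log2 folds of 1 array over another, and 2-fold was the size from which a gene was counted as different. Both days were compared with the same sham array, and day 7 was compared with day 1, so the 3 comparisons share arrays.

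The levels are log2 of the intensity relative to the array's 75th percentile of spots, which has the level 0. All 9 neuronal markers and all 10 oligodendrocyte markers examined were well above background on the 3 arrays. Hoxa2, a hindbrain transcription factor, was well above background on sham and day 1 and not on day 7. Egr2, the other hindbrain gene examined, was well above background on sham and day 7 and not on day 1. Of 5 markers of the cerebellum next to the nuclei, 4 were well above background on sham, 2 on day 1 and 1 on day 7, and their summed intensity was 2.34, 2.99 and 3.65. Among them, Gabra6 of granule cells was not above background on any array, and Calb1 of Purkinje cells was well above it on all 3, with levels of 1.10, 1.40 and 1.85. The summed intensity of the 9 neuronal markers, relative to the 75th percentile, was 37.7 on sham, 36.9 on day 1 and 28.7 on day 7. That of the 10 oligodendrocyte markers was 27.0, 24.1 and 19.2 in the same order, and that of 6 choroid plexus and ependyma markers was 0.95, 0.81 and 2.10. In tissue RNA, fewer cells of a type and less RNA per cell cannot be told apart. The arrays lay on 1 slide, each at a position of its own, so position and group cannot be told apart either.

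All 66 ribosomal protein genes were well above background on all 3 arrays. Their levels had a median of 1.99 on sham, 1.81 on day 1 and 1.80 on day 7, against medians of -1.85, -1.63 and -1.56 for all named genes well above background. On all 3 arrays 56 genes lay above the 75th percentile and 5 lay below it. The level of a probe depends on the probe as well as on the transcript, so the levels of different genes are not compared. The signal of 5 genes was saturated on sham, namely Rpl13a, Rpl41, Rpl8, Rplp1 and Rps27a. None was saturated on day 1, and Rpl13a, Rpl41 and Rplp1 were saturated on day 7. Saturated values give only bounds and stay out of the counts below. Rpl8, a protein near the catalytic centre of the large subunit, was at least 1.19-fold higher on sham than on day 1 and at least 1.25-fold higher than on day 7. For Rps27a, which is made as a fusion with ubiquitin, the same bounds were 1.03-fold and 1.09-fold. All these bounds are for the scaling used here. Rps2 and Rplp2, whose folds at day 1 were as near 0 as that of Rps27a, changed sign with other scalings. Rplp1, a flexible protein of the stalk that recruits elongation factors, was the 1 member printed on 10 spots, and its levels were 3.47, 3.53 and 3.45.

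The start sites were read from RefSeq promoter sequences of the GRCr8 assembly, which held 52 of the 66 genes. The annotated start base lay inside an unbroken run of at least 5 pyrimidines (C or T) in 32 of the 52, or 61.5%, against 11.7% of all 27457 promoters. A C at the start followed by at least 4 more pyrimidines, the form of the TOP tract, was present in 40.4% against 2.63%. The windows below hold the 20 bases before the start and the 20 bases from the start on, and were chosen from genes named in the results, the first 6 with a run at the start and the last 3 without one. Capitals mark the pyrimidine run that holds the start base.
Rps23, chr2:23814497-23814536, plus strand: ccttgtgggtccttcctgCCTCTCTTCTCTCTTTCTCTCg
Rpl10, chrX:157205830-157205869, plus strand: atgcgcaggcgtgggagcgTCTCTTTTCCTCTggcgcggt
Rps26, chr7:1643385-1643424, minus strand: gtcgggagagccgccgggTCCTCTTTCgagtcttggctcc
Rpl28, chr1:78083513-78083552, minus strand: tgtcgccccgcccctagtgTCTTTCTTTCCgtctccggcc
Rps18, chr20:4933725-4933764, plus strand: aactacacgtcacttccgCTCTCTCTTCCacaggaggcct
Rpl4, chr8:73566457-73566496, plus strand: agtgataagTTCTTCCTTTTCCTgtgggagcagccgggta
Rps6, chr5:106420521-106420560, minus strand: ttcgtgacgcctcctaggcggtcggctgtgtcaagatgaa
Rpl11, chr5:153560783-153560822, minus strand: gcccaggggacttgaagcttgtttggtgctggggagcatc
Rps12, chr1:23500055-23500094, plus strand: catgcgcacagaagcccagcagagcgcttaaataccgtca
The run was 21 bases long in Rps23, 13 in Rpl10 and 9 in Rps26. Rpl28 and Rps18 had runs of 11 bases and Rpl4 a run of 14. A gene without a run at the annotated start can still hold one close by: 75% of the 52 had a run of at least 8 pyrimidines within 20 bases of the start, against 15.5% of all promoters.

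**Figure D1:**
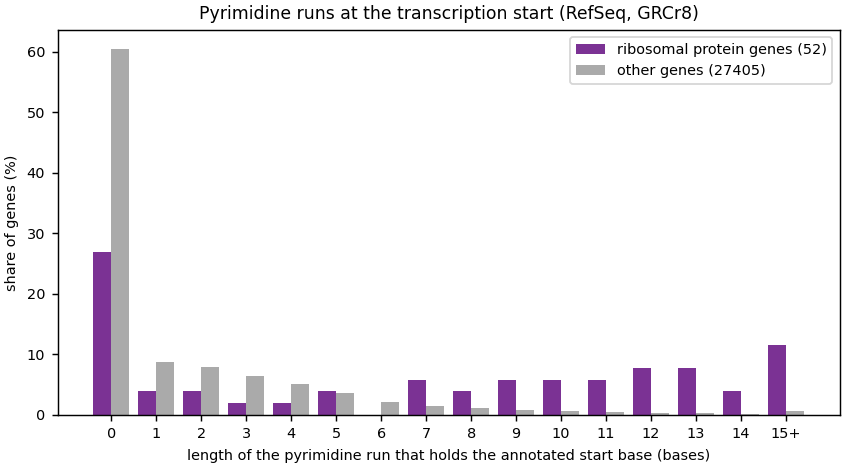
Share of genes (vertical axis, %) by the length in bases of the pyrimidine run that holds the annotated start base (horizontal axis, 0 where the start base is a purine, 15+ for longer runs), for the 52 ribosomal protein genes with a RefSeq promoter (purple) and 27405 other genes (grey). A purine at the start was annotated for 26.9% of the ribosomal protein genes and 60.5% of the others, and runs of 15 or more bases for 11.5% and 0.68%.

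At day 1 most ribosomal protein genes lay within 2-fold of their sham levels. Of the 61 genes measured on both arrays, 60 differed by less than 2-fold, 1 was at least 2-fold higher and 0 were at least 2-fold lower. Among all 6290 named genes measured, 12.6% differed by at least 2-fold, 8.27% upwards and 4.37% downwards. Among the 1789 of these at or above the 75th percentile, where most members lie, 4.08% did, 3.24% upwards and 0.838% downwards. The members' share was 1.64%. Of the 55 members at or above the 75th percentile 0 differed by 2-fold, and of the 6 below it 1 did. Their log2 folds had a median of -0.05 and ran from -0.60 to 1.24, with 25 above 0 and 36 below, or 32 to 42 below under 5 other scalings. Of the members 59.0% lay below 0, against 49.9% of all genes and 60.1% of the bright ones. The median over all named genes was 0.00 and that over bright genes was -0.06. The distance from 0 had a median of 0.24 for the members, more than the 0.19 of bright genes and less than the 0.34 of all named genes.

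The genes highest at day 1 included Rpl37al2, Rpl28, Rpl30 and Rps6. Rpl37al2, named as a relative of Rpl37a, was the 1 member past 2-fold, with levels of -2.50 on sham, -1.26 on day 1 and -2.23 on day 7 and log2 folds against sham of 1.24 and 0.28. Its signal stood apart on day 1 and was back near the sham level on day 7. It was among the 5 genes below the 75th percentile on all 3 arrays. Rpl28, a large-subunit protein that budding yeast lacks, had levels of 0.36, 1.33 and 0.99, which made folds of 0.97 and 0.63. Both arrays after surgery were above sham for this probe. A further Rpl28 probe was well above background on sham alone, at a level of -5.49, and gave no fold. Rpl30, which also binds messengers of selenoproteins, had levels of -0.54, 0.20 and -0.51, so that it was higher on day 1 alone, with a log2 fold of 0.74 at day 1 and 0.04 at day 7. Rps6, the small-subunit protein phosphorylated by the S6 kinases, had levels of 1.05, 1.68 and 1.55 and folds of 0.64 and 0.50. For Rps6, too, the sham array was the low one and both days lay near each other. Next came Rps18 in the head of the small subunit at 0.44, Rpl35a at 0.42, Rpl27 at 0.41 and Rpl35 at the rim of the exit tunnel at 0.39.

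The genes lowest at day 1 were led by Rpl6, on the outer face of the large subunit, with levels of 2.27 on sham, 1.67 on day 1 and 1.55 on day 7. Its log2 folds against sham were -0.60 and -0.72, and both later arrays were below sham. Rpl3, close to the catalytic centre, had levels of -0.70, -1.24 and -0.84 and was low on day 1 alone, with folds of -0.54 and -0.14. Rpsa, a small-subunit protein also known as a laminin receptor precursor, had levels of 2.14, 1.67 and 1.81 and folds of -0.47 and -0.34. The rest of the 8 lowest were Rps15a at -0.41, Rpl4, Rpl11 and Rplp0 at -0.38 each, and Rps3 at -0.36. Rps3 sits where the messenger enters the ribosome. None of these reached 2-fold.

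**Figure D2:**
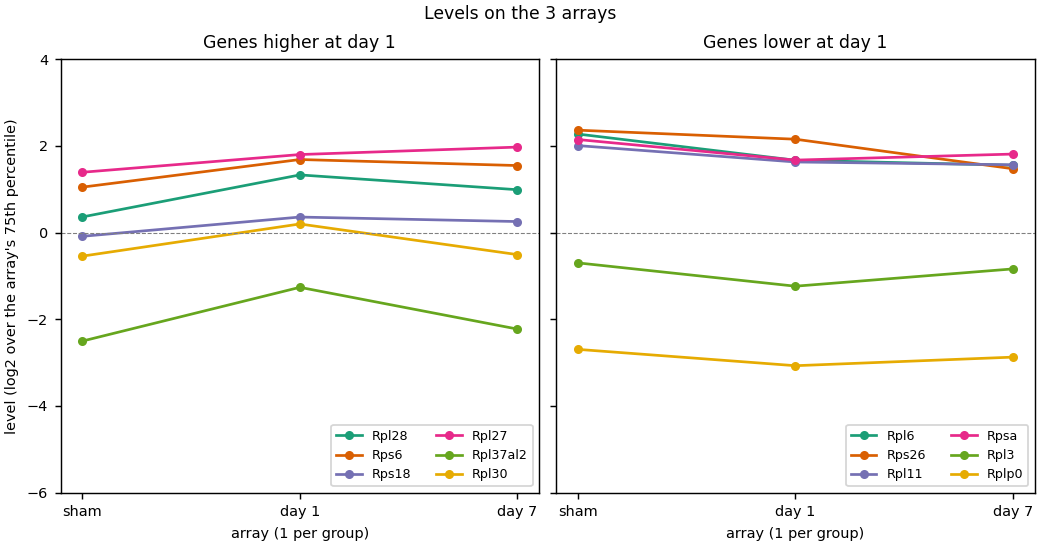
Level (vertical axis, log2 of the intensity over the array's 75th percentile) on the sham, day 1 and day 7 arrays (horizontal axis) of 6 genes that were higher and 6 that were lower at day 1 than on sham. Lines join the values of 1 probe and are read along the arrays, not between genes. Rpl37al2 and Rpl30 peak on day 1, Rpl28 and Rps6 stay above sham on day 7, and Rps26 is lowest on day 7.

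At day 7 no ribosomal protein gene was 2-fold different from sham. Of the 61 measured, 0 passed that size, against 16.9% of the 6256 named genes and 4.86% of the 1771 bright ones. The median log2 fold was -0.11, against 0.05 over all named genes and -0.09 over the bright ones. More members lay below 0 (41, or 34 to 49 under the other scalings) than above (20). The share below 0 was 67.2%, against 46.7% of all genes and 60.9% of the bright ones. The small and large subunits had medians of -0.21 over 26 genes and -0.08 over 35, which ran from -0.34 to -0.15 and from -0.21 to -0.01 over the scalings. Of the 9 neuronal markers, 8 were measured as single genes at day 7, and 6 of these lay below 0, with a median of -0.38. A drop of 2-fold or more was seen for 3 of the 8, and for 359 of the 6256 named genes. A further list, of inhibitory and excitatory neurons of the vestibular nuclei, had a median of -0.02 over 8 genes. In that list 5 genes lay below 0, and 2-fold was passed upwards by 2 genes and downwards by 2. The part of these markers in the members' folds was not tested.

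Rps26 was the lowest member at day 7. It lines the channel through which the messenger leaves the small subunit, and its levels were 2.36 on sham, 2.15 on day 1 and 1.47 on day 7. The log2 fold was -0.21 at day 1 and -0.89 at day 7, so that the day 7 array stood apart. Rpl6 followed at -0.72. Rpl10, which joins the large subunit late in its assembly, had levels of 2.98, 2.76 and 2.45 and a fold of -0.53 at day 7. A further Rpl10 probe gave -0.48. Rps25, used by some viral messengers to recruit ribosomes, had levels of -0.41, -0.40 and -0.93, and a fold of -0.52 that came from the day 7 array alone. Rpl11 was at -0.44, Rps23 of the decoding centre at -0.42, Rpl36al1 at -0.41 and Rpl5 at -0.38.

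The highest members at day 7 were Rpl28 at 0.63 and Rpl38 at 0.61. Rpl38, known in mice for its part in the translation of Hox messengers, had levels of 0.71 on sham, 1.07 on day 1 and 1.32 on day 7, highest on the last array. Rpl27 had levels of 1.39, 1.80 and 1.97 and a fold of 0.58. Its second probe gave -0.12 instead, so the direction at day 7 depended on the probe. Rps6 was at 0.50 and Rps4x, the X-linked form of a small-subunit protein, at 0.44. Rps18 was at 0.34, Rpl37al2 at 0.28 and Rpl13 at 0.23.

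**Figure D3:**
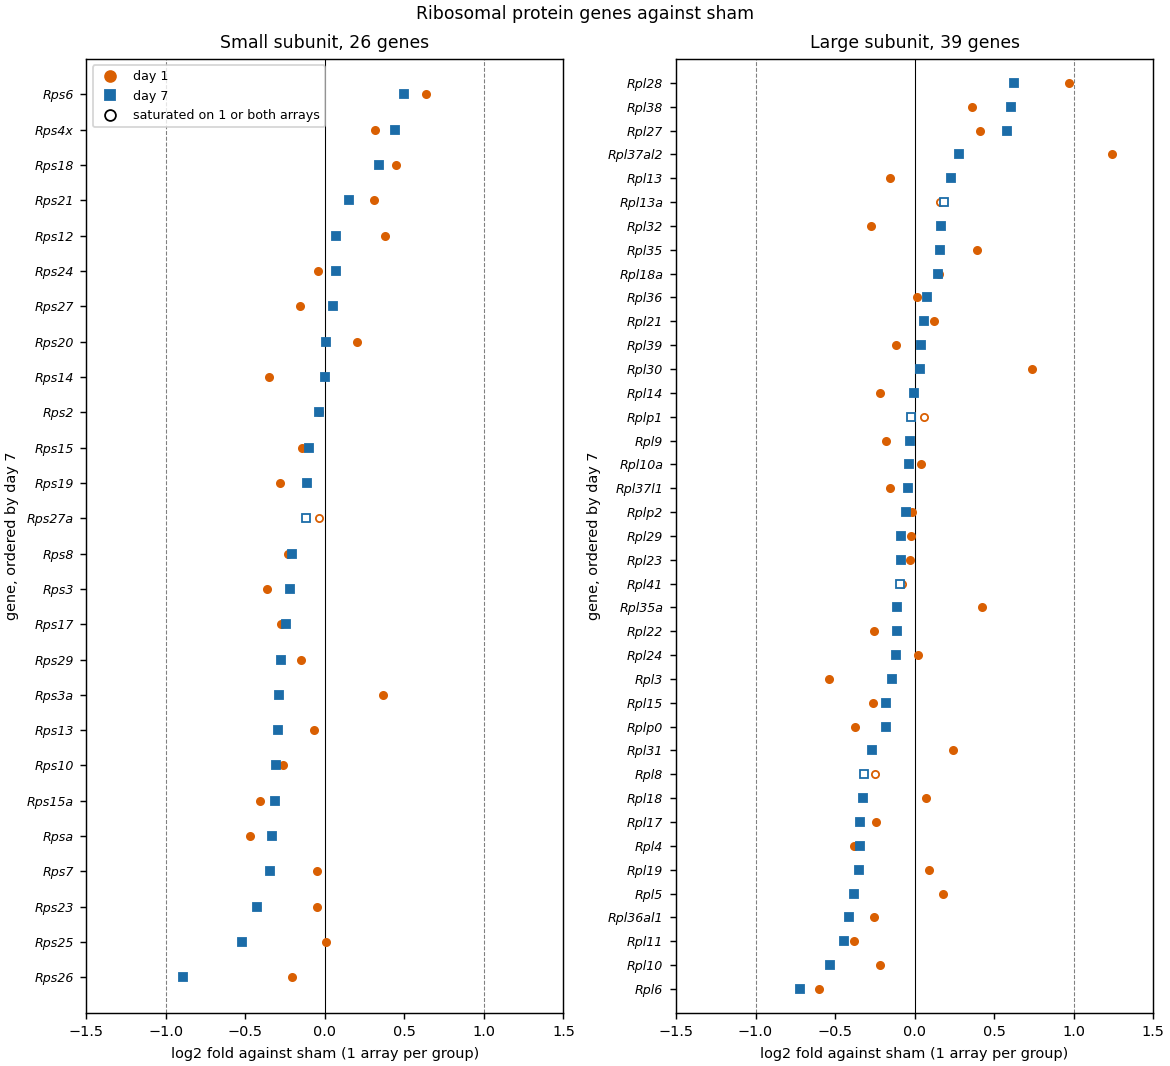
Log2 fold against sham (horizontal axis) of 26 of the 27 small-subunit genes and all 39 large-subunit genes, saturated ones included (vertical axis, ordered by day 7) at day 1 (orange circles) and day 7 (blue squares), 1 array per group, with no error bars because there are no replicates. Open symbols are saturated on 1 or both arrays and dashed lines mark 2-fold. Rpl37al2 at day 1 is the 1 symbol outside the dashed lines.

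Between day 7 and day 1, 63 members were measured and 0 differed by 2-fold, against 11.9% of 6139 named genes and 3.00% of 1764 bright ones. The median log2 fold of day 7 over day 1 was -0.06, but 0.05 with no scaling, and 37 members lay below 0, or 25 to 39 under other scalings. The share below 0 was 58.7%, against 46.4% of all genes and 53.0% of the bright ones. Rpl37al2 was the lowest at -0.96 and Rpl30 followed at -0.71, since both were high on day 1 alone. Rps26 was at -0.68 and Rps3a at -0.65. Rps3a, whose product lies near the messenger exit, had levels of -0.91 on sham, -0.54 on day 1 and -1.20 on day 7, so that day 1 was the highest and day 7 the lowest. The highest members were Rpl32 at 0.44, Rpl3 at 0.40, Rpl13 at 0.38 and Rps14 at 0.35, each of which was lowest on day 1.

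Over all 3 arrays, the distance from the lowest to the highest level had a median of 0.38 for the 61 members measured throughout, and 45 of them stayed within 0.5. A distance of 2-fold or more was found for 1 member, against 25.3% of 6047 named genes and 7.29% of the bright ones. The median distance was 0.60 for all named genes and 0.35 for the bright ones. Sham was the highest array for 31 of the 61 members, day 1 for 21 and day 7 for 9. With the 5 other scalings included, these counts ran from 24 to 40 for sham, 13 to 23 for day 1 and 5 to 16 for day 7. Among bright named genes sham was the highest array for 45.7%, day 1 for 25.5% and day 7 for 28.8%, against 50.8%, 34.4% and 14.8% of the members. Day 7 was the lowest array for 24 members, day 1 for 22 and sham for 15, and either later array could hold the most with another scaling. With the scaling used here the most frequent order, in 17 genes, had sham highest and day 1 lowest. In 11 genes, among them Rps6, Rps18 and Rpl28, day 1 was highest and sham lowest.

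Grouped by place in the ribosome, the 4 measured proteins of the messenger exit side were all below 0 on both days, or 3 of 4 under some other scalings, with medians of -0.28 at day 1 and -0.34 at day 7. They were Rpsa, Rps7, Rps14 and Rps26, and the value of Rps14 at day 7 was -0.00. Of all 61 measured members, 59.0% lay below 0 at day 1 and 67.2% at day 7. The same shares were 60.1% and 60.9% of bright named genes, and 49.9% and 46.7% of all named genes. The 4 proteins of messenger entry and decoding, Rps2, Rps3, Rps15 and Rps23, were also below 0 on both days, again 3 of 4 under some other scalings, with medians of -0.10 and -0.16. For Rps2 at day 1 this held for the brightest probe only, and its other probes gave 0.13, 0.39 and 0.45. The smallest of these folds were below the SD between the 10 spots of replicated probes, combined over the 2 arrays compared. That SD was 0.14 for day 1 against sham and 0.15 for day 7 against sham. Such folds were those of Rps2 at -0.04 and -0.03, and also Rps7 at day 1 (-0.05) and Rps15 at day 7 (-0.10).

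In the large subunit, the 6 measured proteins at the rim of the exit tunnel were evenly divided at day 1, with 3 above 0 and 3 below. At day 7 their median was -0.19 and 4 were below 0. The direction of Rpl17 and Rpl19 at day 1, and of Rpl31 at day 7, depended on the probe. Rpl5 and Rpl11 travel with the 5S ribosomal RNA and, when unassembled, bind the p53 regulator Mdm2. They were at 0.18 and -0.38 at day 1 and at -0.38 and -0.44 at day 7. For Rpl5 the brightest probe had levels of 1.08, 1.26 and 0.70. Its 2 further probes gave folds of 0.21 and 0.38 at day 7, so the direction of Rpl5 at day 7 depended on the probe. In the stalk, Rplp0 at its base had levels of -2.69, -3.07 and -2.87 and folds of -0.38 and -0.18. Rplp2 had levels of 2.65, 2.64 and 2.60 and folds of -0.02 and -0.06, and the sign of both changed with the scaling.

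Mutation of any of several members causes Diamond-Blackfan anaemia, a failure of red cell formation, and 13 of the genes listed for it were measured. Of these, 9 lay below 0 at day 1 (7 to 10 under other scalings), with a median of -0.15. At day 7, 11 did (11 to 12), with a median of -0.27, against 46.7% of all genes and 60.9% of the bright ones below 0. The 11 include Rpl5 and Rpl35a, for which the other probes were above 0 at day 7. All 13 stayed within 2-fold on both days. Rps19, the gene most often mutated in that disease, had levels of 2.47, 2.19 and 2.36, and its folds were -0.28 and -0.12. The list shares Rps26, Rpl11 and Rpl5 with the lowest genes at day 7.

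Several members serve as reference genes, and their folds differed. Of 8 in common use, 7 were measured and Rpl13a was saturated. At day 1 they ran from -0.38 for Rpl4 to 0.44 for Rps18, and a ratio of Rps18 to Rpl4 would differ by 1.77-fold between the arrays. At day 7 they ran from -0.35 for Rpl19 to 0.58 for Rpl27, a span of 1.91-fold. With the second Rpl27 probe, at -0.12, the highest was Rps18 at 0.34 and the span was 1.61-fold. Rps29 had levels of 1.75, 1.60 and 1.47 and Rpl32 levels of 2.76, 2.48 and 2.93. No reference gene reached 2-fold.

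The folds were related to brightness at day 1. The 7 members below the 75th percentile had a median log2 fold of 0.24 and the 12 at levels from 0 to 1 had 0.13. The 21 at levels from 1 to 2 had -0.15, and the 21 above 2 had -0.12. Other named genes in the same bands had medians of 0.06, -0.03, -0.08 and -0.07. Across the 61 members the Pearson correlation of fold with level was -0.36, against -0.16 across all named genes. These are descriptions across genes that share the same 2 arrays, and a fold shares its values with the level. At day 7 the correlation was -0.11 across members and -0.23 across all genes. The part of signal compression near the top of the scale was not tested.

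**Figure D4:**
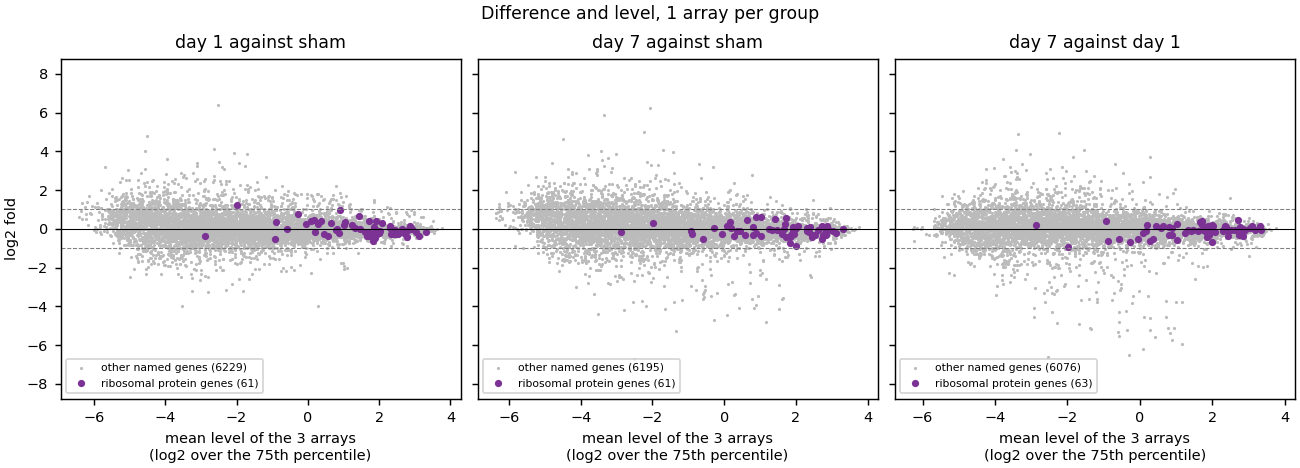
Log2 fold (vertical axis) against the mean level of the 3 arrays (horizontal axis, log2 over the 75th percentile) in the 3 comparisons, for the ribosomal protein genes (purple) and the other named genes (grey), 1 array per group. Dashed lines mark 2-fold. The members lie mostly at the bright end, where the grey cloud is narrow.

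Genes with more than 1 probe show how closely a fold repeats within the same RNA. Both brightest probes were measured for 20 members, and their folds differed by a median of 0.19 at day 1 and 0.10 at day 7. For all named genes with 2 probes the same medians were 0.34 and 0.40, and for those with both probes bright they were 0.19 and 0.20. No member's probes differed by 2-fold, against 195 of 1139 genes at day 1 and 7 of the 193 with both probes bright. The signs of the 2 folds were the same in 13 of 20 members (65%) at day 1 and 14 of 20 (70%) at day 7. The same shares were 60.7% and 63.8% for all named genes, and 59.6% and 67.9% for those with both probes bright. Rps2, a protein of the messenger entry, had 4 probes with folds of -0.04, 0.13, 0.39 and 0.45 at day 1, and -0.03, -0.24, -0.05 and -0.16 at day 7. Its probes agreed in sign at day 7 and not at day 1. The 3 probes of Rpl31, at the tunnel rim, gave 0.24, 0.35 and 0.61 at day 1, all above 0, and -0.27, 0.07 and 0.40 at day 7. The probes of Rpl18 gave 0.07 and -0.47 at day 1, the widest gap between 2 probes of a member. The members' own distance from 0 had a median of 0.24 at day 1 and 0.22 at day 7, against 0.19 and 0.24 for bright named genes. Ribosomal protein genes have many processed pseudogenes, and whether a probe also binds their transcripts was not tested.

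**Figure D5:**
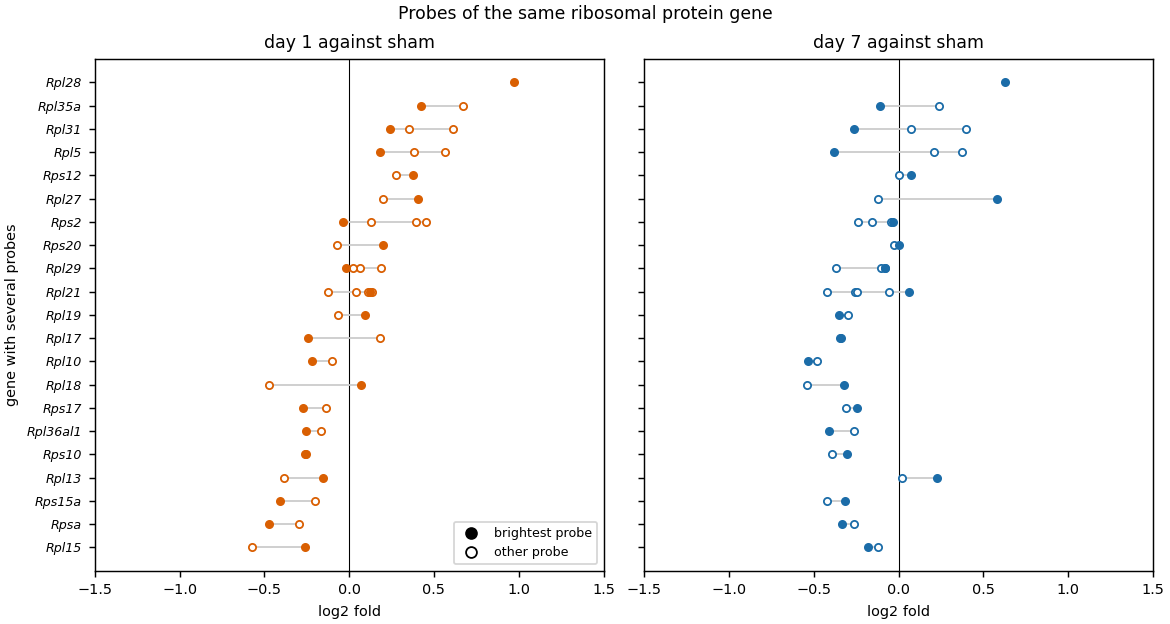
Log2 fold against sham (horizontal axis) of every probe well above background on the 3 arrays, for the 21 genes with several probes (vertical axis), at day 1 (left) and day 7 (right). Filled circles are the brightest probe, open circles the others, and grey lines join the probes of a gene. At day 7 the probes of Rpl27, Rpl5, Rpl21, Rpl31, Rpl35a and Rps20 lie on both sides of 0.

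The folds were also set against the start sequences. The 30 measured genes whose start base lay in a run of at least 5 pyrimidines had a median log2 fold of -0.08 at day 1, and the 18 without such a run had -0.02. At day 7 the medians were -0.09 and -0.17, so the order of the groups turned. Of 3 motifs searched on both strands in the 300 bases around the start, ACTTCCG, a core of ETS-family sites, was found in 14 of the 52 members (26.9%) and in 6.70% of all promoters. AAGATGG, a core of YY1 sites, was found in 13.5% against 7.30%, and TATAAA in 7.69% against 14.3%. The 13 measured genes with ACTTCCG had a median of 0.31 at day 1. Rpl28, Rps6, Rps18 and Rps12 were among those above 0, and the 5 below were Rpsa, Rps3, Rps14, Rpl36al1 and Rps7. The 35 genes without ACTTCCG had a median of -0.12, with 25 below 0. The groups were not matched for level, and dimmer members had the higher folds at day 1. At day 7 the medians were -0.00 and -0.11. A match describes letters in the window and is no evidence of binding, and the grouping was made after the folds were known.

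Of the other proteins of the cytosolic ribosome that the name rule leaves out, Fau, a ubiquitin-like fusion with a small-subunit protein, had levels of 3.32 on sham, 3.21 on day 1 and 3.18 on day 7. Rack1, a scaffold protein on the small subunit, had levels of 0.28, 0.75 and 0.46 and a fold of 0.46 at day 1. Both stayed within 2-fold.

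Other messengers known to carry TOP tracts, such as those of elongation factors, lay below 0 at day 1 in 12 of 12 measured genes, or at least 10 under other scalings, with a median log2 fold of -0.23 and none at 2-fold. Of all named genes 49.9% lay below 0 and 12.6% were at 2-fold, and of the bright ones 60.1% and 4.08%. The lowest were Eif3h at -0.92 and Pabpc1, the poly(A)-binding protein, at -0.71. At day 7, 8 of the 12 were below 0, against 46.7% of all named genes. Vim, an intermediate filament gene of glia, was higher by 1.57 on the log2 scale at day 7. It was the 1 gene of the 12 at 2-fold, against 16.9% of all named genes. Eef1a1, the main elongation factor, was at -0.23 and 0.54. Genes whose symbol begins with Eif encode initiation factors and some of their regulators, and 28 were measured. Of these, 21 lay below 0 at day 1 (17 to 25 under other scalings), with a median of -0.15. Eif3e, Eif3h and Eif4b are also among the 12 messengers with TOP tracts. Of the 28, 1 was at least 2-fold lower at day 1, as were 4.37% of all named genes. This was Eif2ak3, the stress kinase PERK and not an initiation factor itself, at -2.07 on day 1 and -1.86 on day 7. Its levels were -3.23 on sham, -5.30 on day 1 and -5.09 on day 7, so both folds rest on dim values. The lowest levels of named genes well above background were -5.56 on day 1 and -5.51 on day 7. Ribosome assembly genes had medians of -0.14 at day 1 and 0.05 at day 7 over 31 genes, the latter -0.08 with median scaling, among them Ncl, a nucleolar protein, at -0.62 and -0.55. At day 7 Nob1, which matures the small subunit's RNA, was higher by 1.28 and was the 1 gene of the 31 at 2-fold.

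Mitochondrial ribosomal protein genes, whose products form a separate ribosome, had a median of -0.14 over 24 genes at day 1, with 1 at least 2-fold higher (Mrpl49, 1.04), as were 8.27% of all named genes. At day 7 the median was also -0.14 over 23 genes, with 2 at least 2-fold lower, Mrpl19 at -1.65 and Mrpl47 at -1.10, where 16.9% of all named genes differed by 2-fold in either direction. Over the scalings these medians ran from -0.26 to -0.10 at day 1 and from -0.27 to -0.14 at day 7. In the mTOR pathway 15 genes were measured, with medians of -0.10 at day 1 and -0.14 at day 7. Of the 15, 1 differed by at least 2-fold at day 1 and 3 at day 7, against 12.6% and 16.9% of all named genes. Tsc1, a brake on mTOR, was higher by 1.07 and 1.10, with low levels of -4.99 on sham, -3.92 on day 1 and -3.89 on day 7. Ddit4, a stress-induced inhibitor of mTOR, was at -0.82 and -1.65, and Rragc, which recruits mTOR to lysosomes, was at -1.43 on day 7. Their levels were low too, at -2.77 on sham and -4.43 on day 7 for Ddit4, and -3.11 and -4.54 for Rragc. Mtor itself was at 0.26 and 0.07, and Rps6kb1, the kinase that phosphorylates Rps6, at -0.10 and -0.00.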

How the data were processed

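Per the file headers, Agilent Feature Extraction 10.7.3.1 read the arrays, whose design uses the rn4 build. The deposited scanner files give a processed intensity per spot on a linear scale, background-subtracted and not scaled between arrays, with flags for background, saturation and outliers. The authors' series table held the same intensity within 0.1% for 99.7% of 34687 probes on each array. Per the labels' protocols, labelling with Cy3 started from 1 µg of total RNA.

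Values were log2 of the intensity minus the array's 75th percentile over 43379 non-control spots. That percentile was an intensity of 5692 on sham, 5242 on day 1 and 5676 on day 7. Outlier spots were left out and spots of a probe averaged. Spots well above background made up 81.3%, 77.3% and 76.9%, and saturated spots numbered 963, 804 and 842. RefSeq accessions in a GRCr8 table named 10768 of 41012 probes. The scanner files used here have no gene name column and no mean signal column, so naming by that column was not run, and normexp was applied to the median signal. A gene was measured in a comparison when its brightest probe was well above background and unsaturated on both arrays. The procedure was tested on simulated data. The number of arrays limits the precision, and no p-value is given.

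The members and gene lists were chosen with earlier results of these data known. Genes named are the 8 highest and 8 lowest per comparison, those at 2-fold, saturated or 10-spot members, role and reference genes, and members with several probes where they show the spread. Some genes that this rule names are not reported here. Members of the other lists, and the windows, were named after their values were seen. Python 3.11.15, pandas 2.3.3, R 4.3.3 and limma 3.58.1 were used.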

Additional observations from a re-analysis of the deposited data

How the results depend on the processing

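Each comparison was recomputed under 14 alternatives: quantile, cyclic loess and median scaling, no scaling, normexp background correction, other rules for the probe, the filters and saturated or outlier spots, the series table, and leaving out paralogs. The members' median log2 fold lay between -0.17 and -0.03 at day 1 and between -0.25 and -0.04 at day 7, below 0 in all 14. For day 7 against day 1 it lay between -0.18 and 0.05, below 0 in 13 of 14 and above 0 with no scaling. That scaling moved the median of all named genes from 0.04 to 0.15 in that comparison and from 0.00 to -0.12 at day 1, and median scaling moved it from 0.05 to -0.08 at day 7. Relative to the median of all named genes, the members lay between -0.13 and -0.00 at day 1, between -0.26 and -0.06 at day 7, and between -0.17 and -0.05 in day 7 against day 1. The count of members at 2-fold or more at day 1 was 0 in place of 1 with the next brightest probe and when Rpl36al1, Rpl37al2, Rpl37l1 and Rps4x were left out, since Rpl37al2 has 1 probe and is the gene counted. At day 7 it was 1 in place of 0 with median scaling. This gene was Rps26, at -1.02. Of the values of the 8 highest and 8 lowest genes at day 7, 3 of 210 changed sign, those of Rpl5 with the mean of probes or the next probe and of Rpl27 with the next probe. Among the 8 highest and 8 lowest at day 1 and in day 7 against day 1, 0 did. Some alternatives, such as dropping the filter on dim probes or leaving out paralogs, cannot alter a gene's own fold, so these totals overstate the stability. The next brightest probe gave a value for 5 of the 16 genes at day 7, and 2 of the 5 changed sign. It gave a value for 4 of 16 at day 1 and 3 of 16 in day 7 against day 1, where 0 changed. Genes nearer 0 changed sign with the scaling, among them Rps2 (-0.16 to 0.12) and Rplp2 (-0.14 to 0.05) at day 1, and at day 7 Rps2 (-0.16 to 0.12), Rplp2 (-0.18 to 0.03), Rps14 (-0.13 to 0.07) and Rpl30 (-0.09 to 0.04). The ranges over scalings of list counts and array order, and the second Rpl27 probe among the reference genes, were added after seeing the data. No paired analysis was possible because each group has 1 array, and leaving out a replicate was impossible for the same reason. Naming by the array's own gene names was not run. Saturation on sham hides the folds of 5 members at day 1 and day 7.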
